A study of Homo sapiens with 18 samples.

Results

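A list of 40 IDs of replication-dependent histone genes was followed through a precipitation of Flag-tagged SBP2 from HEK293T cells, and the 16 that carried enough counts were described one by one. Replication-dependent histone genes encode the H1, H2A, H2B, H3 and H4 proteins that package newly made DNA, and they lie in clusters of many near-identical copies. The IDs came from a given list of 40 Ensembl gene IDs, all 40 of which were in the count table of 58676 IDs. Of these, 16 reached 10 or more counts in 3 or more of the 18 libraries. The files and the reference table pair no Ensembl ID with a symbol (0 of 40), so the members are given by ID. Which member encodes which histone, and the label of the list itself, could not be checked by name, and no sequence is shown.

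RNA immunoprecipitation sequencing (RIP-seq) sets the RNA held on beads with a tagged protein against that of the whole lysate, called the input. HEK293T is a human embryonic kidney line, and the growth protocol names its parent line instead. All groups were transiently transfected. The control received a Flag vector, another group Flag-SBP2, and the last group Flag-SBP2 followed at 4 h by 100 nM sodium selenite. All cells were lysed at 48 h. Per the labels' protocols, anti-Flag beads stayed for 5 h with 4 mg of protein, and washes held 300 mM KCl, later 500 mM. Each of these 3 treatments had 3 input and 3 RIP libraries, called biological replicates in the series design. Nothing states whether the replicates were transfected separately, so p-values measure the spread between these samples.

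Most mRNAs end in a poly(A) tail, whereas replication-dependent histone mRNAs usually end in a conserved stem-loop that is bound by the stem-loop binding protein. Their copies share much of their sequence, and how reads that fit several copies or strands were counted is not given in the sources used here, so the split of counts between IDs is uncertain. These mRNAs have no introns, are made mainly in S phase, and are degraded when DNA synthesis stops. Some histone genes also give polyadenylated transcripts. SBP2 is an RNA-binding protein that recognises SECIS elements, the hairpins in selenoprotein mRNAs that direct the insertion of selenocysteine. The labels give the sequenced molecule as polyA RNA, so counts of these genes may come largely from the polyadenylated fraction of their transcripts, and this was not tested.

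Library totals were 18.2 ± 2.78, 18.3 ± 3.44 and 18.1 ± 1.32 M counts in the control, SBP2 and SBP2 with selenite inputs (SD, n = 3). RIP libraries were deeper, at 27.5 ± 2.65, 26.8 ± 1.64 and 23.2 ± 3.1 M. Levels are given as CPM, counts scaled to library size, here with the TMM method, which corrects for differences in RNA composition. No gene lengths were used, so levels are compared between libraries only, never between IDs. The transfected gene and cell markers could not be looked up by name and were not analysed here.

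The 40 IDs together held 15432 of 395798091 counts, and the 16 retained IDs held 96.0% of these. Of the 24 IDs below the limit, 4 had 0 counts in every library, which allows up to 0.00758 CPM over the 18 libraries. The other 20 had between 1 and 99 counts in all. Just inside the limit, ENSG00000274641 reached 10 counts in 3 libraries and ENSG00000278637 in 5. Just outside it, ENSG00000277157 and ENSG00000185130 did so in 2 libraries. The retained IDs did not all pass by the same route. In 12 of them the limit was met by inputs and by RIP libraries alike. ENSG00000180596, ENSG00000184260 and ENSG00000274641 met it through inputs and ENSG00000278637 through RIP libraries, so these 4 were selected towards a difference between input and RIP.

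Histone RNA was scarcer on the beads than in the lysate in each treatment. The summed level of the 40 IDs was 58.6, 73.9 and 60.4 CPM in control inputs and 13.1, 13.7 and 14.8 CPM in control RIP. It was 68.8, 77 and 69.1 CPM in SBP2 inputs and 25.2, 21.7 and 20.6 CPM in SBP2 RIP. With selenite it was 66.3, 73.5 and 67.4 CPM in inputs and 23.3, 22.5 and 19.9 CPM in RIP. Every RIP library lay below every input, and all 3 control RIP libraries lay below all 6 SBP2 RIP libraries. The summed RIP level was 0.218 ± 0.0298 of the input in control lysates, 0.316 ± 0.0453 in SBP2 lysates and 0.318 ± 0.03 with selenite (SD, n = 3). The summed level of the 24 sparse IDs was also lower on the beads, at 2.35 ± 0.538 CPM in control inputs against 0.701 ± 0.228 CPM in control RIP. In SBP2 lysates this sum lay at 3.03 ± 0.524 and 0.947 ± 0.39 CPM, and with selenite at 2.7 ± 0.13 and 0.791 ± 0.0452 CPM (SD, n = 3). The sum does not describe each ID. The sparse ID with the most counts averaged 0.209 CPM in control inputs and 0.309 CPM in control RIP.

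**Figure D1:**
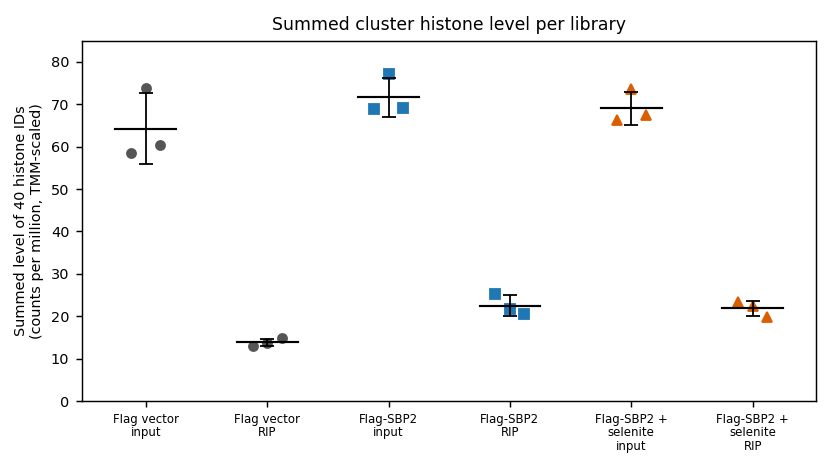
Summed level of the 40 histone IDs in each of the 18 libraries, in TMM-scaled CPM (y axis), by treatment and kind of library (x axis); symbols are libraries, horizontal lines are means and bars are SD (n = 3). Control RIP libraries sit between 13.1 and 14.8 CPM, below the SBP2 RIP libraries and far below the inputs.

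The median of the 16 log2 RIP-to-input ratios was taken in each lysate (prior count of 2). It averaged -1.66 ± 0.22 over control lysates, -1.21 ± 0.26 over SBP2 lysates and -1.20 ± 0.031 over those given selenite (SD, n = 3). Over all 17678 IDs tested, the corresponding medians averaged -0.11, -0.012 and 0.00042. A few IDs dominated the counts, with ENSG00000197903, ENSG00000276180 and ENSG00000187837 holding 62.6% of them.

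**Figure D2:**
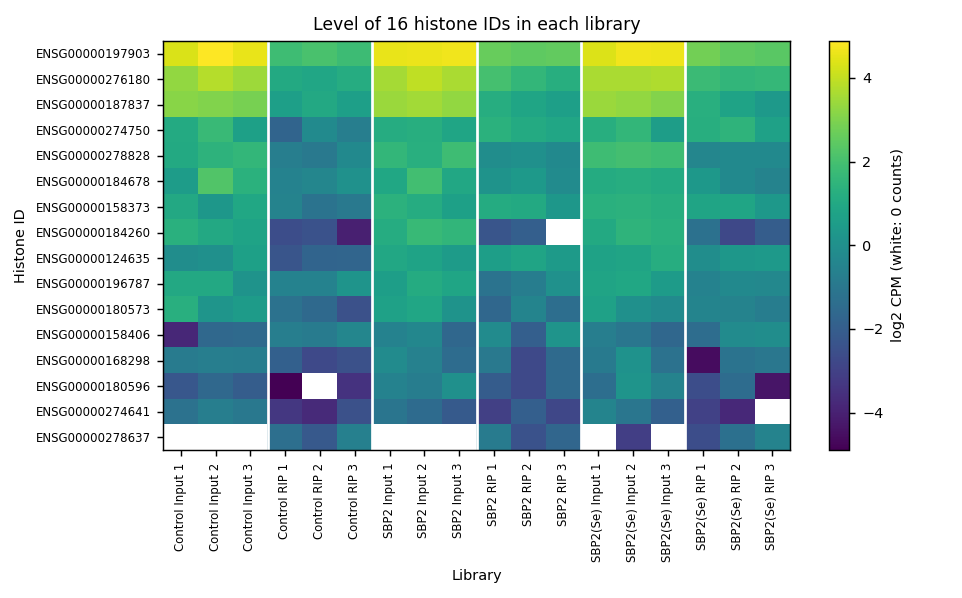
Level of the 16 retained histone IDs (rows) in the 18 libraries (columns, by treatment and replicate), as log2 of TMM-scaled CPM; white cells had 0 counts. Most rows are at lower levels in RIP than in input columns, while ENSG00000278637 had counts in all 9 RIP libraries and in 1 of 9 inputs; colours compare libraries within a row, since levels are not per length.

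The control precipitation measured which RNAs the beads held without a Flag-tagged protein of interest. Of the 16 histone IDs, 14 fell below control input in control RIP, and 2 rose above it (edgeR quasi-likelihood test, adjusted p under 0.05 over 17678 IDs). Among all IDs tested, 39.8% were lower and 31.5% higher. Among the 12 IDs that met the limit in both kinds of library, 11 were lower and 1 was higher. The median of the 16 log2 changes was -2.01, also with ENSG00000278637 at the bound given below, against -0.13 for all IDs. Scaled by library size alone, all IDs had a median of 0.057, and 33.7% of them were lower and 37.3% higher. The histone counts were again 14 lower and 2 higher.

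ENSG00000197903 had 282, 533 and 473 counts in control inputs and 107, 113 and 115 in control RIP, although RIP libraries were deeper. Its level fell from 24.5 ± 4.77 to 3.78 ± 0.407 CPM (SD, n = 3), a log2 change of -2.70 (SE 0.146, 6.51-fold lower, edgeR adjusted p = 1.95e-14). The groups did not overlap, and this was the smallest adjusted p among the histone IDs. ENSG00000276180 had 140, 249 and 217 counts in inputs and 62, 50 and 74 in RIP (log2 -2.48, SE 0.173, edgeR adjusted p = 2.81e-12). ENSG00000187837 had 123, 147 and 145 counts in inputs and 46, 53 and 51 in RIP (log2 -2.25, SE 0.187, edgeR adjusted p = 7.25e-11). Both were low in each RIP library. The largest fall was that of ENSG00000184260, from 35, 36 and 34 counts to 5, 5 and 2. This ID was retained through inputs alone and so was selected towards a fall. Its log2 change was -3.87 (SE 0.443, 14.6-fold lower, edgeR adjusted p = 2.45e-08).

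The other IDs that fell had log2 changes between -2.45 and -1.001. The lowest of these was ENSG00000180596 (SE 0.821), with 1, 0 and 3 counts in control RIP. ENSG00000180596 and ENSG00000274641 were retained through inputs alone and so were selected towards a fall. ENSG00000278828 went from 29, 49 and 60 counts in control inputs to 18, 14 and 28 in control RIP (log2 -1.97, edgeR adjusted p = 4.84e-08). ENSG00000184678 went from 20, 85 and 51 to 20, 20 and 34 counts (log2 -1.83, edgeR adjusted p = 3.38e-05). Its inputs varied widely between replicates. ENSG00000196787 changed least among those called, from 28, 36 and 22 to 20, 18 and 37 counts (log2 -1.001, SE 0.306, edgeR adjusted p = 0.00529), and its groups overlapped in CPM. ENSG00000168298, with 8, 11 and 12 counts in inputs and 8, 4 and 6 in RIP, fell too (log2 -1.54, edgeR adjusted p = 0.0181). That call was lost without control RIP replicate 2 (edgeR adjusted p = 0.0599) or 3 (0.0556).

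Only ENSG00000278637 and ENSG00000158406 were higher in control RIP. ENSG00000278637 had 0 counts in the 3 control inputs and 12, 6 and 21 in control RIP (edgeR adjusted p = 0.000498). It was retained through RIP libraries alone and so was selected towards a rise. Against a floor of 3 counts over the 3 inputs, its observed level was at least 7.57-fold higher in RIP. This bound leaves out the error of the RIP counts. It had 14, 5 and 9 counts in SBP2 RIP and 4, 11 and 14 with selenite. These libraries also counted towards its retention, so they are no separate support. ENSG00000158406 had 1, 6 and 7 counts in control inputs and 18, 15 and 25 in control RIP (log2 1.26, SE 0.554, edgeR adjusted p = 0.0455). The groups did not overlap, but the call was weak. With the lysate as a block its edgeR adjusted p was 0.0578, and without control input replicate 1 or 2 or control RIP replicate 1 or 3 it lay between 0.0572 and 0.156.

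Histone RNAs were also depleted in SBP2 RIP. Against SBP2 input, 9 of the 16 IDs were lower and 1 higher (edgeR, adjusted p under 0.05), where 31.7% of all IDs were lower and 30.3% higher. With selenite, 11 were lower and 1 higher, against 31.6% and 30.7% of all IDs. Among the 12 IDs that met the limit in both kinds of library, 7 were lower without and 8 with selenite, and 0 were higher in either. The medians of the 16 log2 changes were -1.30 and -1.17, the same with ENSG00000278637 at its bound or ratio, against -0.016 and -0.0046 for all IDs. With the lysate as a block 12 were lower with selenite, since ENSG00000180573 then passed (edgeR adjusted p = 0.0401, against 0.0689 without the block).

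The IDs with the most counts stayed depleted. ENSG00000197903 had 346, 404 and 561 counts in SBP2 inputs and 151, 147 and 164 in SBP2 RIP (log2 -2.08, SE 0.14, edgeR adjusted p = 2.79e-12). Selenite lysates had 368, 432 and 461 in inputs and 165, 154 and 105 in RIP (log2 -1.99, SE 0.141, edgeR adjusted p = 7.76e-12). ENSG00000276180 had 176, 263 and 274 counts in SBP2 inputs and 100, 81 and 67 in RIP, then 222, 211 and 243 and 82, 80 and 62 with selenite. Its log2 changes were -2.10 and -2.003 (edgeR adjusted p = 5e-11 and 1.6e-10). All RIP libraries lay below their inputs in level. ENSG00000187837 had 159, 192 and 211 counts in SBP2 inputs against 57, 48 and 44 in RIP, and 194, 167 and 157 against 58, 47 and 26 with selenite. Its log2 changes were -2.50 and -2.40 (edgeR adjusted p = 1.25e-11 and 4.28e-11). ENSG00000184260, selected towards a fall by its retention through inputs alone, was again the lowest. It had 33, 55 and 64 counts in SBP2 inputs against 5, 7 and 0 in RIP (log2 -4.18, SE 0.425, edgeR adjusted p = 4.62e-09). Selenite lysates had 37, 46 and 46 counts in inputs against 10, 4 and 5 in RIP (log2 -3.15, SE 0.402, edgeR adjusted p = 2.23e-07).

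Several IDs with fewer counts were depleted as well. ENSG00000278828 had 44, 41 and 79 counts in SBP2 inputs against 23, 27 and 24 in RIP, and 65, 66 and 67 against 18, 23 and 17 with selenite (log2 -1.71 and -2.18, edgeR adjusted p = 3.11e-07 and 7.39e-09). ENSG00000196787 had 22, 37 and 39 against 11, 16 and 29 counts, and 32, 32 and 26 against 16, 23 and 16 with selenite (log2 -1.39 and -1.12, edgeR adjusted p = 0.000434 and 0.00356). ENSG00000184678 had 28, 63 and 42 against 27, 34 and 25 counts, and 39, 39 and 39 against 30, 23 and 14 with selenite (log2 -1.22 and -1.22, edgeR adjusted p = 0.00307 and 0.00473). Its call in SBP2 RIP was lost without SBP2 input replicate 2 (edgeR adjusted p = 0.0551). ENSG00000180596, with 4 to 10 counts in SBP2 RIP and 1 to 10 with selenite, fell at log2 -1.62 and -1.79 (edgeR adjusted p = 0.00649 and 0.00507). These calls were lost without SBP2 input replicate 3 (edgeR adjusted p = 0.0575) and without selenite input replicate 2 (0.0529). ENSG00000274641 had 7, 6 and 5 counts in SBP2 inputs against 3, 7 and 4 in RIP, which did not pass (edgeR adjusted p = 0.148). With selenite it had 13, 8 and 5 against 3, 2 and 0 (log2 -2.70, SE 0.632, edgeR adjusted p = 0.000635). Both ENSG00000180596 and ENSG00000274641 were retained through inputs alone and so were selected towards a fall.

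Another pattern was that of RNAs at or near their input level in SBP2 RIP. ENSG00000274750 had 33, 40 and 39 counts in SBP2 inputs and 63, 57 and 52 in the deeper SBP2 RIP libraries, or 2.14 ± 0.303 against 2.17 ± 0.351 CPM (SD, n = 3). Its log2 change was 0.029 (SE 0.293, edgeR adjusted p = 0.939). With selenite it had 42, 50 and 27 against 56, 74 and 33 counts (log2 0.016, SE 0.291, edgeR adjusted p = 0.968). Neither change had a stable sign when single libraries were left out. ENSG00000124635 had 29, 29 and 30 counts in SBP2 inputs against 37, 47 and 38 in RIP and did not pass (edgeR adjusted p = 0.68). With selenite it had 30, 30 and 43 against 22, 33 and 26 counts and fell (log2 -0.75, SE 0.255, edgeR adjusted p = 0.0129). ENSG00000158373 had 39, 38 and 34 counts in SBP2 inputs against 54, 56 and 34 in RIP and did not pass either (edgeR adjusted p = 0.468). With selenite it had 45, 44 and 44 against 42, 49 and 25 counts (log2 -0.62, SE 0.257, edgeR adjusted p = 0.0387).

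These falls with selenite were small, and their calls were not stable when single libraries were left out. The call of ENSG00000158373 was lost without any one of the 3 selenite inputs or without selenite RIP replicate 3 (edgeR adjusted p from 0.0562 to 0.146), with library size alone (0.0569) and without a low-count filter (0.0565). That of ENSG00000124635 was lost without selenite input replicate 3 (edgeR adjusted p = 0.0809) or selenite RIP replicate 1 (0.0607). The ID called higher in both SBP2 precipitations was again ENSG00000278637, which was retained through RIP libraries alone and so was selected towards this direction. It had 0 counts in the SBP2 inputs. Against 3 counts over the 3 inputs, its observed level in SBP2 RIP was at least 6.23-fold higher, with the error of the RIP counts left out. With selenite it had 0, 2 and 0 counts in inputs, and the RIP-to-input ratio was 10.9 (95% interval 2.75 to 94.1, exact, counting error only). ENSG00000158406 had 10, 13 and 7 counts in SBP2 inputs against 22, 7 and 32 in RIP, and 11, 8 and 6 against 9, 24 and 19 with selenite. Its groups overlapped in both treatments, with log2 values of 0.41 and 0.64 (edgeR adjusted p = 0.463 and 0.273).

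**Figure D3:**
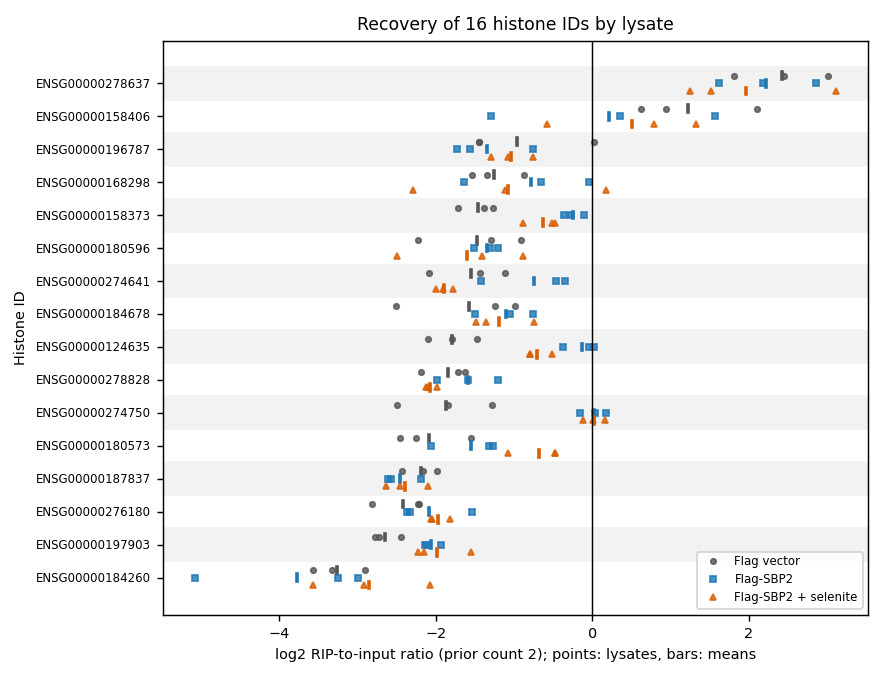
log2 RIP-to-input ratio (x axis, prior count of 2) of the 16 retained histone IDs (y axis, ordered by the control mean) in the 3 lysates of each treatment; points are lysates and vertical bars are means. Control points of ENSG00000274750, ENSG00000124635 and ENSG00000158373 lie to the left of all SBP2 points, whereas those of ENSG00000187837 and ENSG00000278828 overlap with them.

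The background of the Flag precipitation was then taken off. This enrichment over control is the log2 RIP-to-input change of SBP2 lysates less that of control lysates. Without selenite 4 of the 16 IDs were enriched and 0 depleted (edgeR, adjusted p under 0.05), where 21.7% of all 17678 IDs were enriched and 18.1% depleted. A share of 25% is close to that background, so the count is no result about histone RNAs as a group. At an unadjusted edgeR p under 0.05 the counts were also 4 and 0, while 8329 of the 17678 IDs reached it in either direction. DESeq2 gave 4 and 0, against 18.8% and 22.1% of all IDs. The median was 0.62, against 0.022 for all IDs. With library size alone the shares of all IDs turned to 17% enriched and 24.7% depleted, with 3 and 0 histone IDs.

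ENSG00000274750 stood first. In control lysates its log2 RIP-to-input ratio averaged -1.88 ± 0.61, and in SBP2 lysates 0.018 ± 0.17 (SD, n = 3), after 30, 60 and 32 counts in control inputs and 9, 23 and 20 in control RIP. Its enrichment was 2.03 (SE 0.45, 4.08-fold, edgeR adjusted p = 0.000762), and the lysates did not overlap. ENSG00000124635 had 13, 18 and 32 counts in control inputs and 6, 8 and 10 in control RIP, and its ratio went from -1.79 ± 0.31 to -0.13 ± 0.22 (SD, n = 3). Its enrichment was 2.01 (SE 0.418, 4.03-fold, edgeR adjusted p = 0.000387). ENSG00000158373 had 28, 22 and 38 counts in control inputs and 21, 12 and 17 in control RIP. Its ratio went from -1.46 ± 0.23 to -0.25 ± 0.13 (SD, n = 3), which made it 2.58-fold enriched (log2 1.37, SE 0.401, edgeR adjusted p = 0.00812). In each of these IDs all 3 SBP2 lysates lay above all 3 control lysates, with means at or just under the input level.

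ENSG00000197903 was enriched by less, at 0.62 (SE 0.201, 1.54-fold, edgeR adjusted p = 0.0152), and remained below input in SBP2 RIP. Its call was lost with library size alone (edgeR adjusted p = 0.072), without a low-count filter (0.0799), and without control input replicate 2 (0.0631) or control RIP replicate 3 (0.058). The lowest estimates were those of ENSG00000158406 (-0.85, SE 0.739, edgeR adjusted p = 0.392), ENSG00000196787 (-0.39, SE 0.439, edgeR adjusted p = 0.521) and ENSG00000184260 (-0.32, SE 0.777, edgeR adjusted p = 0.784). None of these passed. ENSG00000187837 had narrow errors and also did not pass, at -0.25 (SE 0.267, edgeR adjusted p = 0.493).

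With selenite, 4 IDs were again enriched and 0 depleted (edgeR), against 19.3% and 14.4% of all IDs. At an unadjusted edgeR p under 0.05 the counts were 5 and 0, while 7434 of the 17678 IDs reached it in either direction. DESeq2 gave 4 and 0, against 15.8% and 19.4% of all IDs. The median was 0.55, against 0.026 for all IDs. Library size alone gave 15.1% and 20.3% of all IDs, DESeq2 size factors gave 15.7% and 19.2%, and both gave 4 and 0 histone IDs. Both enrichments used the same 3 control lysates, so agreement between them is not independent. ENSG00000274750 was enriched 4.04-fold (log2 2.01, SE 0.45, edgeR adjusted p = 0.000999), and ENSG00000124635 one of 1.38 (SE 0.424, 2.61-fold, edgeR adjusted p = 0.0132). The latter was lost without control input replicate 3 (edgeR adjusted p = 0.0706) and without a low-count filter (0.0557). ENSG00000197903 was enriched by 0.71 (SE 0.202, 1.64-fold, edgeR adjusted p = 0.00759).

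ENSG00000180573 passed in this comparison, at 1.57 (SE 0.541, 2.96-fold, edgeR adjusted p = 0.027). It had 34, 21 and 28 counts in control inputs and 13, 9 and 6 in control RIP, 24, 31 and 24 and 8, 19 and 11 in SBP2 lysates, and 29, 17 and 16 and 17, 19 and 12 with selenite. Without selenite its enrichment was 0.70 (SE 0.547, edgeR adjusted p = 0.335), and the difference between both SBP2 treatments did not pass (log2 0.87, SE 0.526, edgeR adjusted p = 0.989). The call was also not stable when single libraries were left out. It was lost without control input replicate 1, control RIP replicate 3, selenite input replicate 2 or 3, or selenite RIP replicate 1 or 2 (edgeR adjusted p from 0.0537 to 0.101). ENSG00000158373 missed the threshold with selenite (log2 0.97, SE 0.402, edgeR adjusted p = 0.0658) and passed with the lysate as a block (0.025).

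**Figure D4:**
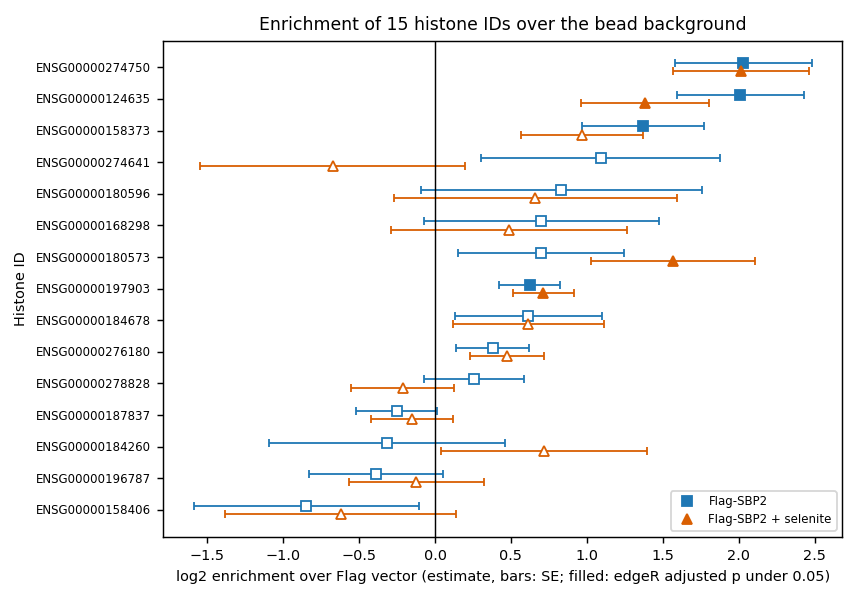
log2 enrichment over the Flag vector control (x axis) of 15 histone IDs (y axis), without selenite (squares) and with selenite (triangles); points are edgeR estimates, bars are SE, and filled symbols passed an adjusted p of 0.05. ENSG00000274750, ENSG00000124635 and ENSG00000197903 are filled in both; ENSG00000278637 is left out, since its control and SBP2 inputs held 0 counts.

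The RIP libraries were also compared with each other without inputs. Against control RIP, 6 of the 16 IDs were higher without and 7 with selenite, and 0 were lower (edgeR). Among all IDs, 29.4% were higher and 26.9% lower without selenite, and 27.1% and 23.9% with it. The 3 IDs with the largest enrichment without selenite were among those higher here. The enrichment already contains this difference from the same RIP libraries, so the overlap is no independent support. ENSG00000124635 was higher by 2.48 without and 2.06 with selenite (edgeR adjusted p = 1.64e-07 and 7.62e-06). ENSG00000274750 was higher by 1.88 and 1.94 (edgeR adjusted p = 2.68e-05 and 2.27e-05), and ENSG00000158373 by 1.69 and 1.52 (edgeR adjusted p = 2.06e-05 and 0.000124). ENSG00000278637 did not differ beyond its spread, at -0.29 and -0.068 (edgeR adjusted p = 0.672 and 0.928).

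The recovery of histone RNA by SBP2 was compared with and without selenite. No histone ID passed, with edgeR calling 0 of 16, and 0 at an unadjusted p under 0.05, which 800 of all 17678 IDs reached. DESeq2 gave an adjusted p for 0 of the 16, and 0 of them had an unadjusted DESeq2 p under 0.05. Among all IDs edgeR called 0% in either direction. The highest estimates were those of ENSG00000184260 (1.04, SE 0.683), ENSG00000180573 (0.87, SE 0.526) and ENSG00000196787 (0.27, SE 0.45). The lowest with counts in each group were those of ENSG00000274641 (-1.76, SE 0.875) and ENSG00000124635 (-0.63, SE 0.355). The edgeR adjusted p was 0.989 or more for each of the 16. With standard errors of this size, even estimates of -1.76 and 1.04 did not pass. The lack of calls thus does not exclude changes of that size in the sparser IDs.

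Inputs gave the level of these RNAs in the lysate, where 14 of the 16 IDs were tested. In bulk lysates, fewer cells in S phase and less histone RNA per cell cannot be told apart. SBP2 inputs and control inputs differed in 0 of 14 IDs (edgeR), against 0.361% of 16616 IDs called higher and 0.518% lower. DESeq2 called 0. Of the 16616 IDs, 2500 had an unadjusted edgeR p under 0.05 in either direction, and so had 2 of the 14, both higher. ENSG00000187837 went from 8.07 ± 0.75 to 10.7 ± 0.855 CPM (SD, n = 3). Its log2 difference was 0.41, with SE 0.142 and an edgeR adjusted p of 0.199. ENSG00000180596 had 3, 6 and 5 counts in control inputs and 10, 10 and 22 in SBP2 inputs (log2 1.52, SE 0.487, edgeR adjusted p = 0.168). In each of these the groups did not overlap in CPM, but neither passed in the fit without a replicate block. How many of all IDs did not overlap is not given here, and the fit with a block is given further below. The 14 log2 values ran from -0.22 to 1.52, with a median of 0.22.

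With selenite, inputs differed from SBP2 inputs in 0 of 14 IDs by edgeR, where 0.00602% of all IDs were higher and 0% lower. DESeq2 also called 0. At an unadjusted edgeR p under 0.05 there were 0 of the 14, and 251 of all 16616 IDs. The log2 values of the 14 ran from -0.37 to 0.28. Selenite inputs against control inputs gave 0 of 14 by edgeR and by DESeq2. By edgeR 0.307% of all IDs were higher and 0.247% lower, or 0.355% and 0.162% with library size alone. Of the 16616 IDs, 1870 had an unadjusted edgeR p under 0.05 in either direction, and so had 4 of the 14, all higher. These were ENSG00000180596 (log2 1.43, edgeR adjusted p = 0.272), with 7, 19 and 13 counts, ENSG00000124635 (0.69, 0.382), ENSG00000158373 (0.56, 0.435) and ENSG00000278828 (0.50, 0.382). The smallest edgeR adjusted p among the 14 was 0.272. Blocked by replicate number, edgeR called 2.26% of all IDs higher and 4.54% lower between selenite and control inputs, and still 0 of 14 histone IDs. Between selenite and SBP2 inputs the block gave 0.0301% and 0.193%, again with 0 of 14.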

How the data were processed

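RNA from inputs and anti-Flag precipitations of 18 HEK293T libraries was sequenced. The authors deposited whole-number read counts per Ensembl gene ID. The submitters' processing notes name Trim Galore 0.6.6, STAR 2.7.6a, featureCounts 2.0.1 and GRCh38. The annotation, strand setting and treatment of reads mapping to several places: not given in the sources used here.

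From these counts, IDs were filtered with filterByExpr (minimum count 10, minimum total 15), scaled with TMM and tested with edgeR 4.0.16 in R 4.3.3 (quasi-likelihood, two-sided, Benjamini-Hochberg over all tested IDs, threshold 0.05). A model of 6 groups over 18 libraries gave the RIP comparisons and enrichments, and a model of the 9 inputs gave the input comparisons. Standard errors were derived from the test statistic. Ratios per lysate used a prior count of 2. Library totals ran from 15.2 to 29.9 M. Intervals and floors (3 counts) cover counting error only. The code was tested on simulated data.

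Input and RIP of a lysate are paired, since the protocol takes the input from the sample before bead incubation. Their deviations correlated at 0.0012 to 0.19. The main fits did not use this pairing, and fits with the lysate as a block are given as an alternative. Same-numbered inputs correlated at 0.085 to 0.31, and every pair exceeded 0.1 between selenite inputs and the others, but not between control and SBP2 inputs. No 2 replicates agreed within sampling noise, with a chi-square per degree of freedom of 5.07 or more.

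The named IDs are the retained members. Those with the 10 highest mean levels and, in each RIP comparison, the 3 largest and 3 smallest changes are given by library, and other counts are added where a call is discussed. The members and lists were chosen with earlier results of these data known. Lists given by symbol were not used, since 0 of 40 IDs matched the reference table. Alternatives were DESeq2 1.42.0, its size factors, library size alone, no filter, a replicate block, no inputs, another prior count, and leaving out each library.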

Additional observations from a re-analysis of the deposited data

Results flagged for a closer look

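A test of the difference itself (edgeR contrast over 18 libraries) compared the RIP-to-input change of SBP2 and control lysates. Without selenite it differed for 4 of the 16 histone IDs, all enriched. That is close to the 21.7% of all 17678 IDs that were enriched, with 18.1% depleted, so the count is no result about the group. The log2 differences were 2.03 for ENSG00000274750, 2.01 for ENSG00000124635, 1.37 for ENSG00000158373 and 0.62 for ENSG00000197903. With selenite they were 2.01 for ENSG00000274750, 1.57 for ENSG00000180573, 1.38 for ENSG00000124635 and 0.71 for ENSG00000197903. Of all IDs, 19.3% were enriched and 14.4% depleted with selenite. Both sets of calls used the same control lysates. The calls of ENSG00000197903 without selenite, and of ENSG00000180573 and ENSG00000124635 with it, were lost in some fits described above. Groups held 3 libraries each, so single libraries were not tested as outliers.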

How the results depend on the processing

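Every count of histone IDs below is by adjusted p under 0.05. With the lysate or replicate number as a block, 1 histone ID instead of 2 was higher in control RIP (32.2% instead of 31.5% of all IDs). Of the histone IDs, 2 instead of 0 were then higher in SBP2 inputs than in control inputs. These were ENSG00000187837 (log2 0.41, edgeR adjusted p = 0.0199) and ENSG00000180596 (1.54, 0.0331). All IDs then had 7.42% higher and 9.03% lower, against 0.361% and 0.518% without the block. Same-numbered control and SBP2 inputs correlated at 0.085 to 0.22 and those of other numbers at most at 0.027, so every sample correlated best with its own number. That is a hint of pairing from the data, and the labels do not state it. The block also gave 12 instead of 11 IDs lower with selenite (32.1% instead of 31.6% of all IDs). It gave 5 instead of 4 enriched with selenite (20.5% instead of 19.3% of all IDs). ENSG00000274750 turned to -0.00085 with selenite in RIP against input. The block changed no other call of a histone ID. Leaving out 1 library at a time gave 1 to 2 IDs higher and 13 to 14 lower in control RIP, 8 to 9 lower in SBP2 RIP and 9 to 11 with selenite, and 3 to 4 and 3 to 5 enriched. The shares of all IDs in these fits are not given here, so the ranges show only how stable the calls were. Signs turned for ENSG00000274750 (-0.10 to 0.14 in SBP2 RIP, -0.22 to 0.26 with selenite), ENSG00000158406 (-0.013 to 0.82 in SBP2 RIP) and the enrichment of ENSG00000184260 (-0.96 to 0.26, the latter without SBP2 RIP replicate 3). Without inputs, 7 instead of 4 IDs were higher with selenite, while the share of all IDs also rose, to 27.1% from 19.3%. The values were then 0.24 and 0.18 for ENSG00000158406 and 0.16 for ENSG00000184260 without selenite. With a prior count of 0.5 the median ratio was -1.88 in control and -1.28 in SBP2 lysates with selenite, and with total counts as library size the latter was -1.15. The cause of these shifts was not tested. DESeq2 size factors changed no call among the named values, nor did DESeq2 among those it gave an adjusted p, which leaves out the selenite effect. Many IDs had under 20 counts in a library, which limits what could be called.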

Other observations

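Replicates of histone IDs varied more than counting error alone. Over groups with at least 15 counts, the chi-square per degree of freedom had a median of 1.84 in inputs (43 ID and group pairs) and 1.58 in RIP (42). The widest spread was that of ENSG00000184678 in control inputs, at 15.3, with 20, 85 and 51 counts. In RIP it was that of ENSG00000158406 with SBP2, at 7.18, with 22, 7 and 32 counts.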
